A study of Mus musculus with 12 samples.

Results

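Zbtb16 encodes PLZF, and it is described here across sorted germ and somatic cells of the newborn mouse testis as 1 gene of the 54532 in the deposited count table. It was picked by its gene name, as a factor of spermatogonial stem cells and a glucocorticoid target. No measured value entered that rule, but earlier results of these data were known when the gene was chosen. The RNA-seq study asked how the glucocorticoid receptor agonist dexamethasone (dex) acts on germ cells and on their somatic surroundings. All mice were males of the strain Tg(Pou5f1-EGFP)2Mnn, in which a Pou5f1-ΔPE-eGFP transgene marks germ cells with green fluorescent protein (GFP). Pregnant dams received dex by intraperitoneal injection at embryonic days E17.5 and E18.5, and the pups were injected under the skin at postnatal day (PN) 0, each time with 10 μg per g of body weight. Controls received saline on the same days. At PN1 the testes were dissociated and cells were sorted into a GFP+ fraction (germ cells) and a GFP- fraction (somatic cells). Each of the 4 groups (germ saline, germ dex, somatic saline and somatic dex) held 3 libraries, and per the study each library came from testes pooled over separately dosed litters. The somatic fraction is everything that is not GFP+, so it mixes Sertoli, Leydig, peritubular, stromal, endothelial and blood cells.

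PLZF is a transcription factor with a BTB domain and a row of zinc fingers, and it recruits corepressors and histone deacetylases to the genes it binds. In the testis it is known as a marker of undifferentiated spermatogonia, and mice that lack it gradually lose their spermatogonial stem cells. Outside the germ line, Zbtb16 is known as a gene induced by glucocorticoids in several mesenchymal and epithelial cell types, where the hormone-bound glucocorticoid receptor acts as a transcription factor.

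The 12 libraries held 18459692 to 25178477 counts, and 3 counts, the most that a count of 0 allows, came to 0.111 to 0.170 counts per 1000000 library counts (CPM) depending on the library. CPM values were scaled to effective library size by the trimmed mean of M-values (TMM). Of the 10 germ cell markers, the summed level was 3868 to 4236 CPM in germ libraries and 22.0 to 27.8 CPM in somatic libraries, so the sorted fractions carried the markers of their labels. The 8 Sertoli markers summed to 3497 to 4158 CPM in somatic libraries and to 28.4 to 55.2 CPM in germ libraries. The counts of every pair of replicates differed by more than sampling noise.

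Zbtb16 (ENSMUSG00000066687) lies on the minus strand of chromosome 9, at chr9:48654297-48836222 of GRCm38, and spans 181.926 kb. The counts were taken over 5283 bases of exon sequence, which equals the union of exons of Zbtb16-201 and Zbtb16-202 in GENCODE M21. Both transcripts have 7 exons, the same coding length of 2019 bases, and a start codon in exon 2. The strand setting of the counting is not given in the sources used here. No annotated gene of the count table overlapped Zbtb16.

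In germ cells Zbtb16 was an abundant transcript. Replicates 1, 2 and 3 of germ saline held 7169, 7025 and 7254 Zbtb16 counts, or 313.9, 365.9 and 345.5 CPM. Those of germ dex held 6319, 8465 and 6305 counts, or 291.3, 312.9 and 293.4 CPM. The means were 342 ± 26 CPM in saline and 299 ± 12 CPM in dex (SD, n = 3 each). On the length-corrected FPKM scale the 6 germ libraries lay between 56.7 and 70.5, and Zbtb16 ranked between place 523 and place 730 of 22046 protein-coding genes.

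In somatic cells the same gene went from near the detection limit in saline to a moderate level in dex. Somatic saline replicates 1, 2 and 3 held 11, 51 and 16 counts, which is 0.558, 2.24 and 0.777 CPM. The exact 95% Poisson intervals of these levels were 0.279 to 0.998, 1.67 to 2.95 and 0.444 to 1.26 CPM, so replicate 2 stood above the other two by more than counting error. Such intervals cover counting error only. Somatic dex replicates held 355, 458 and 254 counts, which is 20.1, 23.2 and 12.8 CPM. The lowest dex library was 5.72 times the highest saline library, and every dex library lay above every saline library. By FPKM, Zbtb16 ranked between place 12908 and place 14319 of the protein-coding genes in somatic saline, and between place 8429 and place 10053 in somatic dex.

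**Figure D1:**
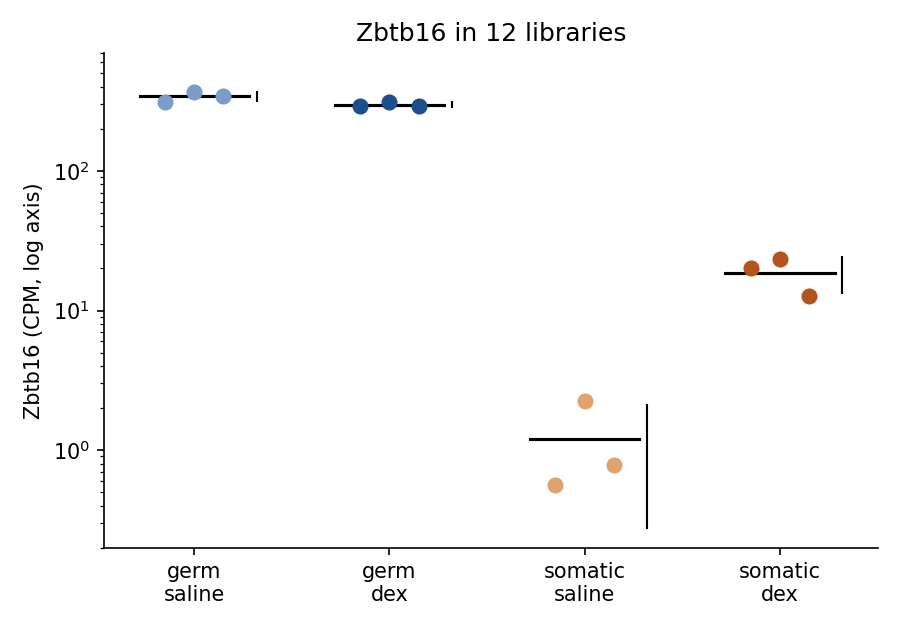
Zbtb16 level (CPM, log axis) in the 12 libraries, with 3 points per group for the libraries, a horizontal line at the group mean and a vertical bar for ± 1 SD. The germ libraries lie between 291.3 and 365.9 CPM, the somatic dex libraries between 12.8 and 23.2 CPM and the somatic saline libraries between 0.558 and 2.24 CPM.

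Dex libraries were then set against saline libraries of the somatic fraction, to ask whether the agonist changed Zbtb16 outside the germ line. The mean rose from 1.19 ± 0.91 CPM to 18.7 ± 5.3 CPM (SD, n = 3 each), a ratio of 15.7. The log2 fold change was 3.98 ± 0.37 (SE) with an adjusted p of 1.6e-05 by edgeR's quasi-likelihood test, adjusted by Benjamini-Hochberg over 16766 genes. A gene is called here where that adjusted p is at or under 0.05. In this comparison 655 genes, 3.91% of those tested, were called, 459 of them higher in dex. Zbtb16 had the sixth highest log2 fold change of all 16766 genes. With a library left out its place was 8 to 10 without a dex library and 24, 22 or 27 without saline replicate 1, 2 or 3, and it was 142 of 20551 genes in a fit over all 12 libraries and 378 of 27934 with DESeq2. Saline replicate 2 set much of the size: without it the ratio of means was 28 and the log2 fold change 4.79, while the other libraries left out in turn gave 3.66 to 4.2, and Zbtb16 was called each time. In bulk samples, fewer cells of a type and less RNA per cell cannot be told apart.

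In germ cells the level of Zbtb16 was not called as changed by dex. The log2 fold change was -0.20 ± 0.07 (SE), with an unadjusted p of 0.015 and an adjusted p of 0.20 by edgeR's quasi-likelihood test. The 95% interval of the log2 fold change ran from -0.35 to -0.04, which corresponds to 21.7% to 3.02% less Zbtb16 in dex than in saline. The highest dex library (312.9 CPM) and the lowest saline library (313.9 CPM) were nearly equal, and on the FPKM scale they crossed, at 61.1 in dex replicate 2 and 60.1 in saline replicate 1. An unadjusted p under 0.05 was shared by 14.7% of the 18550 genes tested, and 231 genes, or 1.25%, were called.

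The effects of dex in the 2 populations differed for Zbtb16. The germ effect minus the somatic effect was -4.11 ± 0.35 (SE) on the log2 scale, with an adjusted p of 1.5e-05 in an edgeR quasi-likelihood fit over all 12 libraries. In that test 170 of 20551 genes, or 0.827%, were called. Zbtb16 had the second smallest p and the second most negative difference among the called genes.

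The comparison of germ with somatic cells asked how far the sorted populations stood apart. In saline, germ cells held 287 times the somatic mean, with a log2 fold change of 8.11 ± 0.26 (SE) and an adjusted p of 7.0e-11 by edgeR. Without somatic saline replicate 2 the ratio was 512 and the log2 fold change 8.98. In dex the germ mean was 16 times the somatic mean, with a log2 fold change of 4.0 ± 0.17 (SE) and an adjusted p of 5.3e-10 by edgeR. A germ-to-somatic difference was common, since 76.5% of 18870 genes were called in saline and 76.3% of 18778 in dex. In the order germ saline, germ dex, somatic dex and somatic saline, the germ groups were the only neighbours that were not separated at the threshold. Somatic cells held 0.349% of the germ level of Zbtb16 in saline (0.195% without saline replicate 2) and 6.25% of it in dex.

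Since germ cells hold so much Zbtb16, the germ cell markers were read beside it in the somatic libraries. In somatic saline replicates 1, 2 and 3 the median marker stood at 0.239%, 0.392% and 0.241% of its germ saline level. The same share of the germ Zbtb16 level would be 0.818, 1.34 and 0.822 CPM, against measured levels of 0.558, 2.24 and 0.777 CPM. Replicate 2 was the highest of the 3 by the median marker and by Zbtb16, but the single markers were split, with 5 of the 10 highest and the other 5 lowest in that library. The part of germ cell RNA in the saline level was not tested.

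In somatic dex the median marker was lower, at 0.132%, 0.105% and 0.200% of its germ dex level. That share of the germ level would be 0.396, 0.313 and 0.599 CPM of Zbtb16, against 20.1, 23.2 and 12.8 CPM measured. The 10 markers were uneven, because those of the RNA-binding protein Dnd1 and the PIWI protein Piwil2 stood higher than the others. Dnd1, the highest, was at 4.16% to 6.06% of its germ level in the saline libraries and 7.17% to 8.19% in the dex libraries. Zbtb16 was at 6.72%, 7.76% and 4.28% of its germ level in dex replicates 1, 2 and 3. The part of germ cell RNA in the dex level was not tested. By the summed markers the share was 0.535% to 0.699% in all 6 somatic libraries, or 1.60 to 2.39 CPM of Zbtb16. In each saline library this was above the measured level, and in each dex library it was under it. None of the 6 germ markers that could be tested was called between somatic dex and somatic saline.

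**Figure D2:**
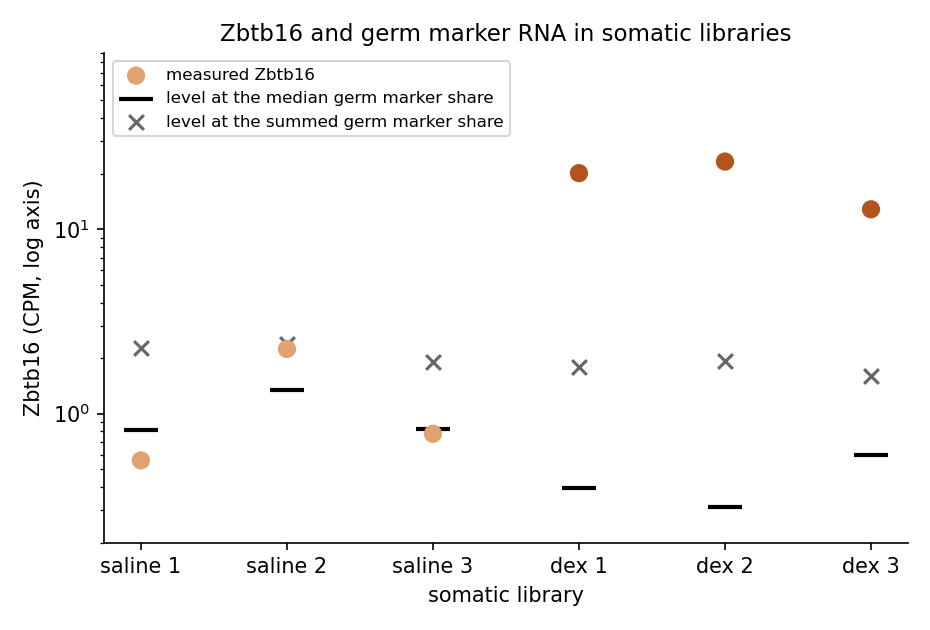
Measured Zbtb16 (circles, CPM on a log axis) in the 6 somatic libraries, with the level that the library's germ marker share would give by the median marker (bars) and by the summed markers (crosses). The dex libraries lie at 12.8 to 23.2 CPM, far above both marks, whose highest value is 2.39 CPM, and the saline libraries lie among or under them.

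Markers of the somatic cell types were read in the same way. Of all 16766 genes tested in somatic cells, 459 were called higher in dex and 196 lower. The 8 peritubular and stromal markers summed to 2672 to 3355 CPM in somatic saline and 3821 to 4333 CPM in somatic dex, a ratio of 1.36. Of these 8, 4 were called higher: Acta2, Des, Pdgfra and Dcn. Of the 7 macrophage markers 3 were called lower (Csf1r, Lyz2 and Mrc1), and their sum was 52.0 to 89.8 CPM in saline and 24.4 to 33.1 CPM in dex. The beta-globin genes Hbb-bt and Hbb-bs, the Leydig gene Star and the endothelial gene Tek were also called lower, and no Sertoli marker was called. Lymphoid cells, some of which depend on PLZF, left little RNA, since their 11 markers summed to 2.22 to 5.34 CPM in the somatic libraries. The shift in peritubular and stromal markers went with the rise of Zbtb16, and its part in that rise was not tested.

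Zbtb16 was set beside 22 genes known to respond to glucocorticoids, a list of which it was not a member. In somatic cells 13 of the 19 tested were called higher and none lower, against 3.91% of all genes called, and the median log2 fold change was 0.98, against -0.01 over all genes. The called genes ranged from 0.37 for Anxa1, an anti-inflammatory phospholipid-binding protein, to 2.02 for Cebpd, a bZIP transcription factor, so all lay under the 3.98 of Zbtb16. The level of Cebpd was 50.01, 24.37 and 61.81 CPM in somatic saline and 212.5, 186.9 and 146.0 CPM in somatic dex. Tsc22d3, which encodes the glucocorticoid-induced leucine zipper protein, was at 38.3, 37.5 and 45.8 CPM in saline and 81.3, 85.5 and 77.0 CPM in dex, a log2 fold change of 1.03 ± 0.11 (SE). The dex libraries lay above all saline libraries for 12 of the 13 risen genes, which were picked here by that call, and for 9.38% of the 16766 genes tested.

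Dex replicate 3, the lowest for Zbtb16, was also the lowest of the 3 dex libraries for 9 of the 13 risen genes and for 35.0% of all genes tested. Saline replicate 2, the highest for Zbtb16, was the highest for 2 of the 13 and the lowest for 8, beside 48.0% and 25.4% of all genes.

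In germ cells the list behaved otherwise, with 2 of 19 genes called higher and 1 lower, beside 1.25% of all genes called. Klf9, a Krüppel-like transcription factor, rose in both populations, with log2 fold changes of 1.08 ± 0.14 in germ cells and 1.27 ± 0.23 in somatic cells (SE). Ddit4, an inhibitor of mTORC1, rose in germ cells, from 28.9, 32.3 and 48.8 CPM to 88.8, 140.6 and 108.8 CPM, a log2 fold change of 1.61 ± 0.18 (SE). Tsc22d3 fell in germ cells by 0.37 on the log2 scale, from 194.7 to 212.7 CPM in saline to 149.8 to 166.4 CPM in dex. The difference between populations was called for 8 of the 21 list genes tested in the 12-library fit, 7 of them with the more negative effect in germ cells. Of all 20551 genes in that fit, 170 (0.827%) were called, 85 of them with the more negative effect in germ cells.

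**Figure D3:**
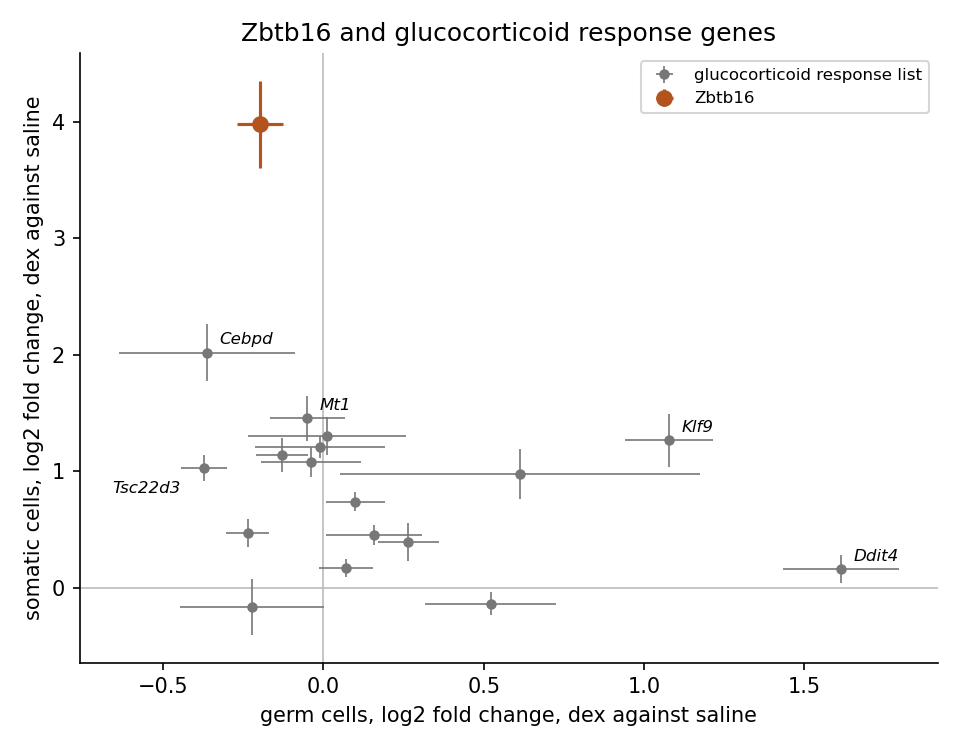
Log2 fold change of dex against saline in germ cells (horizontal axis) and somatic cells (vertical axis) for Zbtb16 and for the genes of the glucocorticoid response list tested in both, with bars of ± 1 SE. Zbtb16 stands at 3.98 in somatic cells and -0.20 in germ cells, above Cebpd at 2.02, while Klf9 is raised in both and Ddit4 in germ cells.

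Dex acts through the glucocorticoid receptor, encoded by Nr3c1, and can also bind the mineralocorticoid receptor, encoded by Nr3c2. Nr3c1 stood at 13.1 ± 0.6 FPKM in germ saline and 4.61 ± 0.88 FPKM in somatic saline (SD, n = 3). The mixed somatic fraction thus held less receptor mRNA on average (log2 fold change of germ over somatic cells 1.37 ± 0.14 (SE), called by edgeR). The receptor level of the somatic cells in which Zbtb16 rose was not measured. The log2 fold change of Nr3c1 in dex was -0.15 in somatic cells and -0.11 in germ cells, and neither was called. Nr3c2 was at 0.30 FPKM in somatic saline and 0.31 FPKM in germ saline, and it was called in neither population.

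Few genes shared the whole pattern of Zbtb16, which was higher in somatic dex, not called in germ dex, higher in germ than in somatic cells under both treatments, and different in its dex effect between populations. Of 15053 genes tested in all 5 comparisons, 8 others had the same calls. The 6 with the largest fitted somatic change were Il1r2, Actn3, Egln3, Mt1, Erbb3 and Camk2n1. Of the 422 genes tested throughout that rose in somatic dex, 57 (13.5%) were higher in germ than in somatic saline cells. The larger number, 314, were higher in somatic cells, so Zbtb16 belonged to the smaller part. Of all 18870 genes tested in saline, 7512 were called higher in germ cells and 6929 in somatic cells.

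Il1r2 encodes the decoy receptor of interleukin 1. It held 2, 3 and 2 counts in somatic saline and 24, 43 and 28 in somatic dex, with 190 to 292 counts in the germ libraries. Its saline counts were at or under the floor of 3 counts, so its fitted changes depend on the prior count and are no measure of size. Across log2 CPM of all 12 libraries it also had the highest Pearson correlation with Zbtb16 among 16038 protein-coding genes, at r = 0.991. The next were Epha8 (r = 0.982), an ephrin receptor, Oasl2 (r = 0.981), an interferon-induced gene, Mchr1 (r = 0.981), Pde4a (r = 0.979), a cyclic AMP phosphodiesterase, and Tsc22d3 (r = 0.978). These correlations run over 12 libraries that share the difference between germ and somatic cells, and 93 genes had an r of at least 0.95. The somatic dex and saline libraries were among the 12, so a somatic rise of these 6 genes was partly set by the selection. Of the 6, Il1r2, Pde4a and Tsc22d3 were called higher in somatic dex, beside 459 of all 16766 genes tested. Epha8 (log2 fold change 1.22, adjusted p of 0.073), Oasl2 (0.68, 0.054) and Mchr1 (1.66, 0.14) were not called by edgeR.

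Mt1, a metal-binding metallothionein and a classical target of the receptor, shared the calls of Zbtb16 and was on the glucocorticoid list. It went from 18.8, 13.7 and 25.3 CPM to 58.2, 55.0 and 42.8 CPM in somatic cells, and lay between 78.4 and 110.7 CPM in all germ libraries. The groups of somatic libraries did not overlap, and dex replicate 3 was again the lowest dex library.

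The receptor binds an inverted repeat with a spacer of 3 bases, and RefSeq promoters (GRCm38.p6, 250 bases before to 50 after a start site) were searched for it. Promoters were matched for 11 of the 13 risen glucocorticoid genes and 5 of the 8 genes with the calls of Zbtb16. Zbtb16 was not matched. The core letters ACANNNTGT, which read the same on both strands, were found in 6.85% of all 32851 promoters, in 2 of the 15 promoters of the risen genes and in 1 of the 5 promoters of the genes with the same calls. The longer form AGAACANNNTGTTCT, which contains the core, was in 3 promoters overall and in none of these. The single element TGTTCT, on either strand and also contained in the longer form, was in 19.0% of all promoters, in 1 of the 15 and in none of the 5. The windows with the core are shown because Mt1 shares the calls of Zbtb16, and 15 bases around each match are in capitals. The Mt1 window is chr8:94178987-94179015 and the Glul window, from the promoter of the glutamine synthetase gene, is chr1:153899894-153899922, both on the plus strand.
Mt1: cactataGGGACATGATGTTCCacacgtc
Glul: gggggcgGGCACAAGCTGTCAAtaaaaag
The capitals of Mt1 begin 95 bases before its start site and those of Glul 28 bases before. A match is a description of letters in this window, and binding was not measured here.

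The 5 nearest protein-coding genes on each side of Zbtb16 were read for a like rise along the chromosome. Toward lower positions these were Nnmt, Gm5617, Rbm7, Rexo2 and Nxpe4, at gaps of 49.1 to 254.3 kb, and toward higher positions Htr3a, Htr3b, Usp28, Zw10 and Tmprss5, at gaps of 63.0 to 245.0 kb. Of these 10 genes, 7 were tested in somatic cells and 9 in germ cells, and edgeR called none in either. Of all genes, 3.91% were called in somatic cells and 1.25% in germ cells. At such shares, no call among so few genes does not set them apart from other genes. DESeq2 also called none. An unadjusted p under 0.05 by edgeR was found for 1 in somatic cells and 0 in germ cells, beside 16.1% and 14.7% of all genes. The 1 was Rexo2, which encodes an RNA exonuclease, at 37.1, 33.8 and 36.3 CPM in somatic saline and 38.28, 45.02 and 46.93 CPM in somatic dex (log2 fold change 0.31, adjusted p of 0.21). The nearest gene, Nnmt, was under the filter in both populations, with mean levels of 0.10 to 0.26 CPM in the 4 groups.

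**Figure D4:**
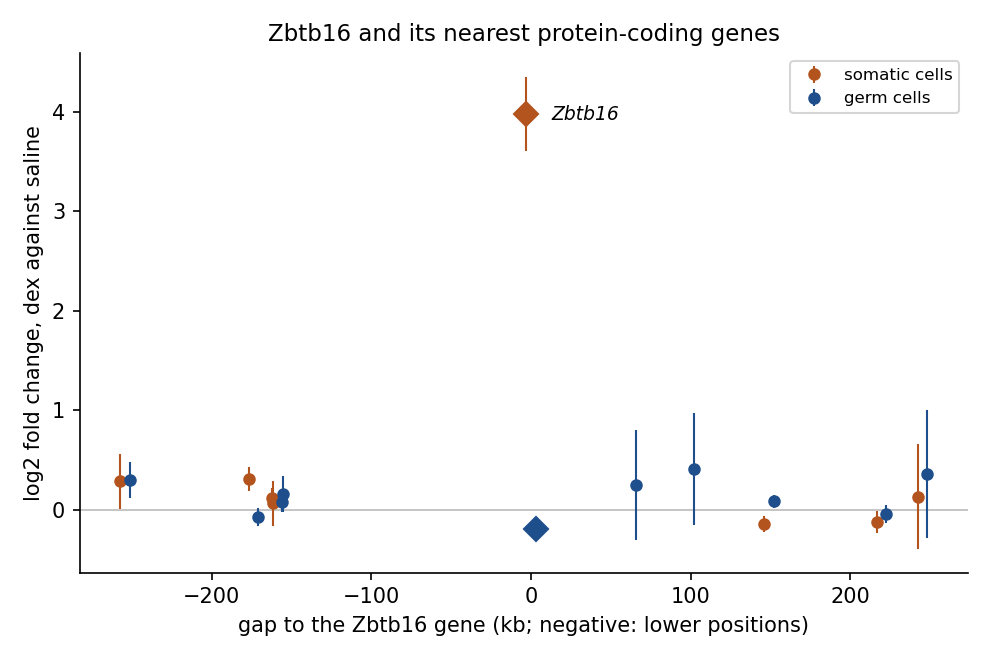
Log2 fold change of dex against saline (± 1 SE) for Zbtb16 (diamonds) and its nearest protein-coding genes (circles) against the gap to Zbtb16 in kb, with somatic and germ points drawn slightly apart. Somatic Zbtb16 stands at 3.98, and no neighbour was called.

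Zbtb16 belongs to the BTB zinc finger family, transcription factors that pair a BTB protein interaction domain with zinc fingers. By FPKM it was the most abundant of 45 members in germ saline, at 65.9, followed by Bcl6b at 42.9, and in germ dex, at 58.4, followed by Zbtb43 at 33.0. In somatic cells Hic1 was the most abundant, at 42.5 in saline and 44.7 in dex. There Zbtb16 moved from place 43, at 0.21 FPKM, to place 28, at 3.40 FPKM. Of the 42 other members tested in somatic cells, edgeR called 0 higher and 1 lower, beside 459 and 196 of all 16766 genes. An unadjusted p under 0.05 by edgeR was found for 2 of them, beside 16.1% of all genes. Zbtb11 was called lower, with a log2 fold change of -0.51 ± 0.13 (SE). In germ cells Bcl6b, a factor of spermatogonial stem cell renewal, was the only one of 43 called, beside 1.25% of all genes. Its log2 fold change was -0.45 ± 0.09 (SE). The call of Zbtb11 was lost without any 1 of the 6 somatic libraries, and that of Bcl6b without germ dex replicate 1 or 3 or germ saline replicate 1 or 3.

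**Figure D5:**
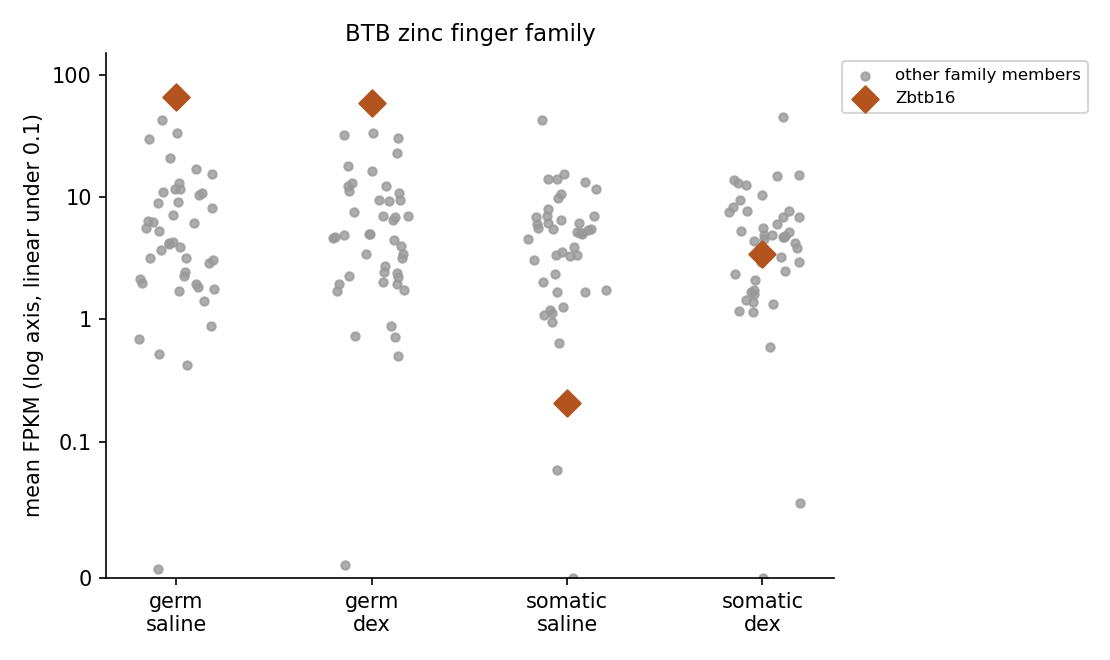
Mean FPKM (log axis, linear under 0.1) of the 45 BTB zinc finger genes in each group, with Zbtb16 as a diamond. Zbtb16 is the highest member in both germ groups (65.9 and 58.4), and it is at 0.21 in somatic saline and 3.40 in somatic dex.

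PLZF works with corepressors and other partners, and 16 genes of such proteins were read next. By edgeR only Agtr2, the angiotensin II receptor type 2, which binds PLZF, was called. That is 1 of 15 tested in somatic cells and 1 of 16 in germ cells, beside 3.91% and 1.25% of all genes. In somatic cells it rose from 138.9 to 167.7 CPM in saline to 328.4 to 435.7 CPM in dex, with a log2 fold change of 1.37 ± 0.10 (SE). In germ cells it was at 0.67 to 1.56 CPM in saline and 2.62 to 4.56 CPM in dex, and that call was lost without germ dex replicate 1 or 3 or germ saline replicate 1 or 3. The peritubular and stromal markers summed to 40.0 to 46.6 CPM in germ saline and 48.8 to 54.3 CPM in germ dex libraries, and their part in the germ level of Agtr2 was not tested. The other 14 partners tested in somatic cells and 15 tested in germ cells, among them the corepressors Ncor1 and Sin3a and the ubiquitin ligase scaffold Cul3, were not called by edgeR. DESeq2 called 1 more in germ cells, the deacetylase Hdac1, with a log2 fold change of -0.29 ± 0.09 (SE) and an adjusted p of 0.047, against 0.11 by edgeR. Of 4 genes known as PLZF targets, Ddit4 rose in germ cells as given above, and Ccna2, which encodes cyclin A2, fell in somatic cells by 0.35 on the log2 scale, a call that was lost without any 1 of the 6 somatic libraries. Kit and Myc were called in neither population, so 1 of the 4 was called in each, beside the same shares of all genes.

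The germ-side setting of Zbtb16 is the programme of undifferentiated spermatogonia. Of 25 genes known from these cells, 23 were called higher in germ than in somatic saline cells, beside 7512 of all 18870 genes. With dex, 2 of the 25 rose in germ cells and 3 fell, beside 1.25% of all genes called, and the median log2 fold change was -0.04, against -0.003 over all genes. DESeq2 called 7. Utf1 (0.55 ± 0.12), a chromatin factor of pluripotent cells, and Cdh1 (0.51 ± 0.11), E-cadherin, rose, whereas T (-1.26 ± 0.20), the transcription factor brachyury, Bcl6b and Lin28a (-0.40 ± 0.07), an RNA-binding regulator of let-7, fell (log2 fold changes ± SE). T went from 19.9, 17.9 and 26.7 CPM to 7.74, 11.6 and 7.58 CPM and was at 0 in all 6 somatic libraries. The number called was 1 without germ dex replicate 1, germ dex replicate 3 or germ saline replicate 1, and 3 without germ saline replicate 2 or 3. Of the 8 genes of spermatogonial differentiation, 0 were called in germ cells by edgeR, and 2 had an unadjusted p under 0.05, beside 14.7% of all genes. DESeq2 called 1, Neurog3, which was named after its values were seen.

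The spermatogonial list was also read in somatic cells. Of its 14 genes tested there, 0 were called higher and 2 lower, beside 459 and 196 of all 16766 genes (3.91% called). At such shares, no higher call among so few genes does not set the list apart from other genes. The 2 called lower were the integrin Itga6 and the adhesion molecule Mcam, with log2 fold changes of -0.35 ± 0.07 and -0.32 ± 0.08 (SE). Without 1 library the number called was 0 or 1: 1 without somatic dex replicate 1 or somatic saline replicate 2, and 0 without any of the other four. The median of the list was -0.21, against -0.01 over all genes. No gene of spermatogonial differentiation was called in somatic cells by edgeR or DESeq2. All 3 tested had an unadjusted p under 0.05 by edgeR, beside 16.1% of all genes, and 1 of the 3 had a positive log2 fold change. Without somatic saline replicate 1, 1 gene was called.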

How the data were processed

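RNA from 12 libraries was sequenced after poly-dT selection. Per the labels and the study, the authors aligned paired reads to mm10 with HISAT2 2.0.5 and counted reads per gene with featureCounts 1.5.0-p3. The deposited counts are raw, and the FPKM deposited by the authors are counts divided by gene length and library size. Tables of the authors' own DESeq2 1.20.0 comparisons (fold changes and p-values) were not used. Each pair of groups was fitted alone with edgeR 4.0.16 (R 4.3.3) by its quasi-likelihood test, with TMM, genes kept at a minimum count of 10, and Benjamini-Hochberg adjustment over all genes kept. The difference of effects used all 12 libraries. An SE is the log2 fold change divided by the root of F. DESeq2 1.42.0 and limma 3.58.1 on log2(FPKM + 0.1 or 1) were alternatives, with other scalings, no filter, a replicate block and each library left out. Tests are two-sided and were tried on simulated counts. Log2 CPM used a prior count of 2. Zbtb16, the gene lists and the tests were chosen with earlier results of these data known. Named genes were the 6 most correlated, the 6 with the same calls and largest somatic change, 5 neighbours a side, up to 6 called genes per list, the most abundant family members and the receptor genes, and genes beyond these were named after their values were seen. The labels give no sequencing batch.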

Additional observations from a re-analysis of the deposited data

Results flagged for a closer look

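The effects of dex in germ and somatic cells were compared by a test of the difference itself. This was edgeR's quasi-likelihood test over 12 libraries, germ effect minus somatic effect on the log2 scale, and it called 170 of 20551 genes (0.827%). Among the genes named above and the lists of glucocorticoid response and cell type markers, it called Zbtb16 and 17 other genes. Some of the 17 were named partly because of this call, as given below. Zbtb16 had the most negative difference of these, at -4.11 ± 0.35 (SE, adjusted p of 1.5e-05), followed by Il1r2 at -3.88 ± 0.50 (SE, adjusted p of 0.0012), whose somatic saline libraries held 2 or 3 counts each. Among the other genes with the calls of Zbtb16 the differences were -1.66 for Actn3, -1.65 for Erbb3, -1.48 for Mt1, -1.38 for Egln3 and -1.17 for Camk2n1. Il1r2 and these genes were grouped with Zbtb16 partly by their call in this same test. Their negative difference was thus set by the selection and is no separate result. Among the other glucocorticoid response genes they were -2.36 for Cebpd, -1.37 for Tsc22d3, -1.24 for Errfi1, -1.18 for Hif3a, -1.08 for Angptl4 and -0.60 for Per1. Ddit4 differed the other way, at 1.49. Of the cell type markers, the macrophage gene Mrc1 (1.91), the germ cell gene Ddx4 (1.28) and the endothelial gene Pecam1 (1.05) also had the higher value in germ cells, and the Sertoli gene Fshr (-3.25) the lower. Fshr held 0 to 3 counts in the germ dex libraries and Ddx4 held 8 to 34 in the somatic libraries.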

How the results depend on the processing

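The 5 results for Zbtb16 kept their direction and their side of the threshold in all 80 alternative fits. With each library left out in turn, the somatic log2 fold change of dex was 3.66 to 4.79, the germ one -0.26 to -0.14, germ against somatic cells 7.75 to 8.98 in saline and 3.78 to 4.18 in dex, and the difference of effects -4.97 to -3.82. With limma on log2(FPKM + 1), whose pseudocount exceeds the somatic saline level, the somatic value was 1.84 and the difference of effects -2.01.

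The numbers of genes called moved more, and the cause was not tested. In somatic cells (655) it was 1061 with no filter, 251 with limma on log2(FPKM + 0.1), 281 on log2(FPKM + 1), 112 on log2(FPKM + 0.1) with no filter, and 354 to 547 with a library left out (398 without dex replicate 2, 383 without saline replicate 1, 354 without saline replicate 3). Scaling by library totals called 708 genes, 53.5% of them higher in dex instead of 70.1%. In germ cells (231) the number was 675 with DESeq2, 767 with no filter, 142 with all 12 libraries in 1 fit, 6, 12 and 0 with the same limma fits (3033 genes at an unadjusted p under 0.05 in the last), and 49 to 265 with a library left out (115 without dex replicate 1, 102 without dex replicate 3, 49 without saline replicate 1, 75 without saline replicate 2). For the difference of effects (170) it was 620, 706, 57 and 53 with DESeq2, no filter, and limma on log2(FPKM + 0.1) with and without the filter, and 79 to 172 with a library left out. In germ cells the share called higher (59.3%) was 69.3% with library totals, 47.7% with no filter and 43% without dex replicate 2, and for the difference (50%) it was 67.0% with library totals and 34.6% without germ saline replicate 1. The glucocorticoid list had 10 to 12 somatic calls with a library left out.

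Replicate numbers were not taken as pairs, and the labels do not give pairs. Same-numbered libraries of different groups had correlations of -0.09 to 0.04, and other-numbered ones -0.08 to 0.13. Between germ and somatic saline libraries these were 0.037 to 0.044 for the same number and -0.028 to -0.009 for other numbers. Between germ and somatic dex libraries they were -0.016 to -0.003 and -0.010 to 0.025. Whether same-numbered fractions came from the same testes was not tested. With the replicate block the somatic change of Zbtb16 was 4.09, the germ one -0.20, germ against somatic cells 8.14 in saline and 4.03 in dex, and the difference -4.12, while 669, 65 and 104 genes were called in somatic cells, germ cells and the difference.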
